A study of Macaca mulatta with 24 samples.

Results

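The genes described are 10 genes that mature neutrophils use at their surface and in their cytosol: the chemokine receptors CXCR1 and CXCR2, the growth factor receptor CSF3R, the formyl peptide receptors FPR1 and FPR2, the membrane enzyme ALPL, the calcium-binding proteins S100A8, S100A9 and S100A12, and the citrullinating enzyme PADI4. They were taken as a list of symbols, drawn up with earlier results of these data known, and every non-control probe carrying one of the symbols was kept. The scanner output named 15 probes of 9 of the genes, and S100A12 was found by matching the transcript accession of its 2 probes to RefSeq. All 10 genes and all 17 probes were bright enough to be tested, out of 10879 named genes and 27112 probes tested.

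Blood was drawn from adult rhesus macaques (Macaca mulatta) of Chinese origin before and after 1 total body dose of 4 Gy. The sample labels name X-rays and place the unirradiated blood at day 0, whereas the study's methods name 60Co gamma rays and a draw before irradiation. The groups were 7 pre-irradiation arrays (dose 0 Gy), 4 arrays at day 3, 6 at day 5 and 7 at day 7, all from the same animals sampled again, with 4, 3, 4 and 4 arrays of males and the rest of females. Unirradiated animals sampled on the same days were not analysed here, so time since the first draw and irradiation cannot be told apart. Whole blood RNA was cleared of globin transcripts and hybridized to one-colour (Cy3) Agilent arrays, and the levels below are log2 of the scanner's processed signal, shifted so that every array matched the median array, where 1 unit is a factor of 2.

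Neutrophils leave the bone marrow as mature cells that divide no further and live briefly in blood. During their maturation granule proteins are made first, whereas receptors for chemokines, formyl peptides and granulocyte colony-stimulating factor, alkaline phosphatase and the S100 proteins of the cytosol are made or reach their highest levels late. Genes of this set are therefore widely used as marks of mature neutrophils, although monocytes also express CSF3R, FPR1, S100A8, S100A9 and S100A12.

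An array had from 48.3 to 61.2% of its probes well above background, and the small number of arrays per group limits precision. Each of 6 slides carried 4 arrays. The first of 2 scanning sessions held 6 pre-irradiation and 6 day 7 arrays, and the second held 1 pre-irradiation array (replicate 5), all day 3 and day 5 arrays and 1 day 7 array (replicate 5). The shift to the median array was largest for replicate 2 at day 7 (2.03) and at day 5 (1.27). Markers of red cells, T cells, B cells, NK cells, platelets, monocytes and neutrophils were all measured in this blood. PAX5 alone among the B cell markers was well above background on no array.

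The probes behind the genes whose change passed the test, and behind ALPL, are shown because the results turn on them. Each is 60 bases long, written 5′ to 3′ with the rheMac2 position given in the scanner output. All these genes lie on chromosome 1. The CSF3R probe (chr1:39333103-39333332, minus strand) and the ALPL probe (chr1:24182340-24183110, plus strand) cover 230 and 771 bases of the genome, more than their own length, so both cross a splice junction in that mapping. The S100A8 probe lies at chr1:131917357-131917416 on the minus strand. The S100A12 probes lie at chr1:131902033-131902092 and chr1:131901998-131902057 on the minus strand and share the 25 bases in capitals, so they are not independent measures of the transcript.
CSF3R: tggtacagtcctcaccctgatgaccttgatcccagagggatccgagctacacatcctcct
ALPL: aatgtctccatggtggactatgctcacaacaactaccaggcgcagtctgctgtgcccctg
S100A8: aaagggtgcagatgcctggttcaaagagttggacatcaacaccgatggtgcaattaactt
S100A12, brightest probe: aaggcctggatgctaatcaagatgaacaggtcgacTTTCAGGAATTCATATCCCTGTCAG
S100A12, second probe: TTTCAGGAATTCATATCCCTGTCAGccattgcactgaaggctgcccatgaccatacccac

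The brightest probe of each gene stood for the gene, and a gene was called when its p from limma (two-sided), adjusted by Benjamini and Hochberg over every tested probe, was under 0.005. CSF3R was the member called higher at days 3 and 5, and S100A8 and S100A12 were the members called higher at day 7. No member was called lower, beside 7.59, 9.13 and 7.2% of all named genes at days 3, 5 and 7. At day 3, 1 of 10 members was called higher, beside 5.97% of all named genes. At day 5 it was again 1 of 10, beside 6.24%. These counts are near the share of all genes and are no result about the set. At day 7, 2 of 10 were called higher, beside 2.67% of all named genes. The log2 change was above 0 for 10, 10 and 9 members at days 3, 5 and 7, and for 49.9, 49.7 and 49.2% of all named genes. The median log2 change of the members was 0.84, 0.73 and 0.79, against -0.00, -0.00 and -0.01 over all named genes. Without ALPL, which was not well above background on any pre-irradiation array, 9, 9 and 8 of 9 members were above 0, with medians of 0.93, 0.73 and 0.75. With the slide (day 3) or session (days 3 and 5) as a block, the comparison rests on 1 pre-irradiation array, replicate 5. There the level of that animal and a slide or session difference cannot be told apart. At day 7, with 6 arrays of each group in session 1, the calls of S100A8 and S100A12 held with either block. With the slide as a block CXCR2, FPR1, FPR2, ALPL and PADI4 were below 0 at day 3, and with the session as a block CXCR2 was below 0 at day 3 and CXCR2 and PADI4 at day 5. The 3 comparisons share the same 7 pre-irradiation arrays. In whole blood a larger share of a cell type and more RNA per cell cannot be told apart.

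**Figure D1:**
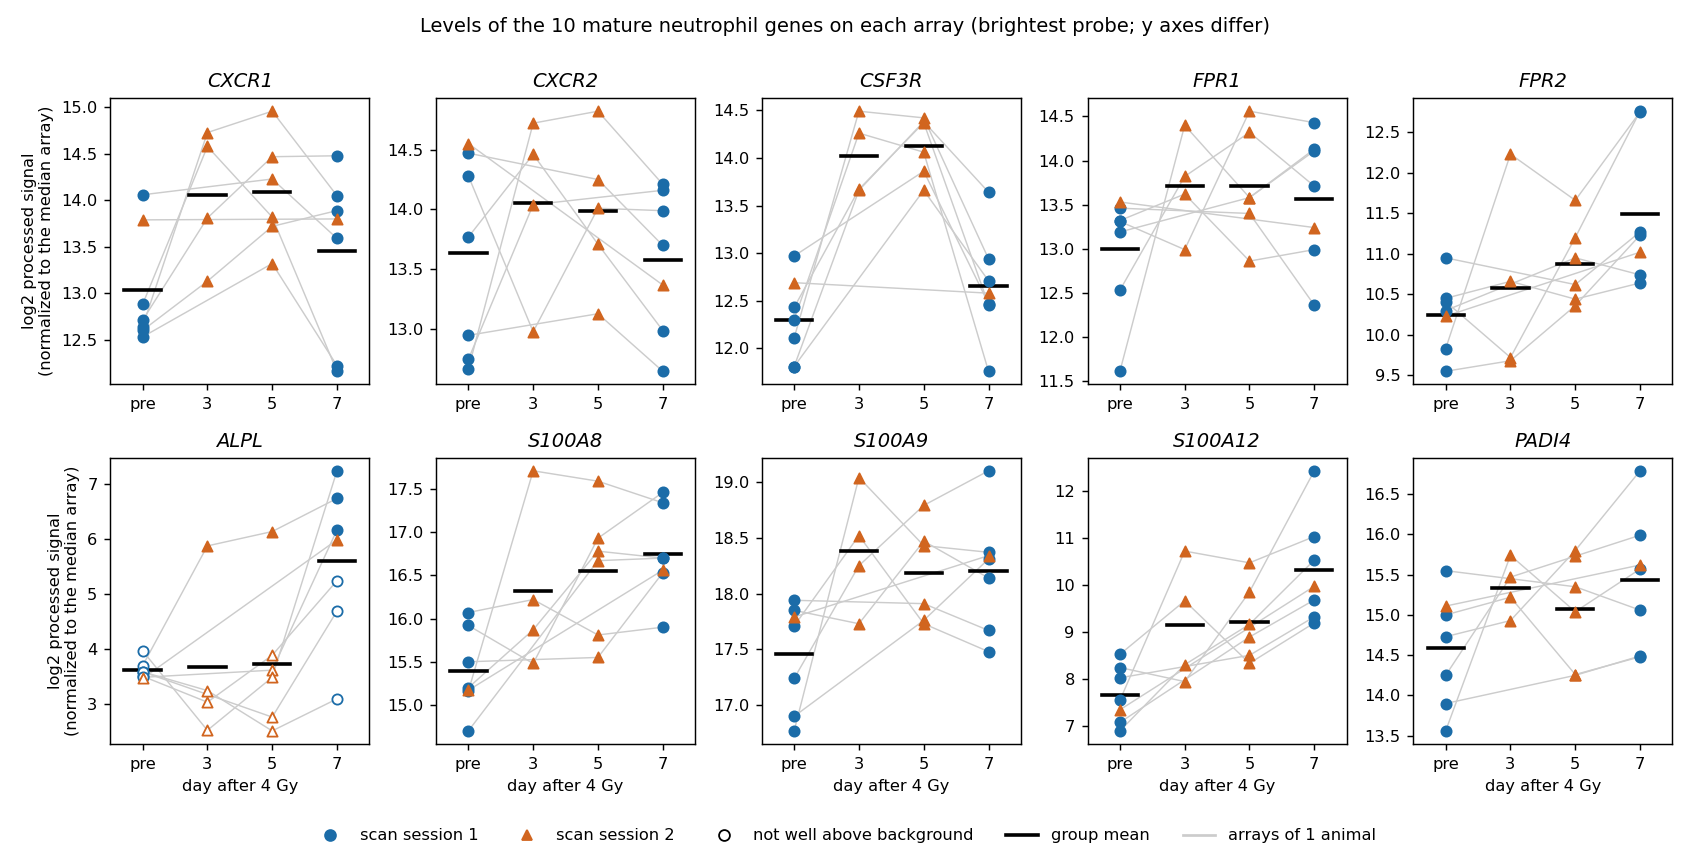
Level of each gene on each array (y axis, log2 processed signal, scale differs by panel) before and 3, 5 and 7 days after 4 Gy (x axis). Points are arrays, grey lines join arrays of 1 animal, black bars are group means, and open points were not well above background. All day 3 and day 5 arrays of CSF3R sit above all 7 pre-irradiation arrays, and all day 7 arrays of S100A12 do.

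CSF3R, the receptor for granulocyte colony-stimulating factor that drives neutrophil production and survival, rose at the early days and was near its starting level at day 7. Its lowest, median and highest levels were 11.81, 12.30 and 12.97 on the 7 pre-irradiation arrays. The 4 day 3 arrays read 14.49, 13.66, 14.26 and 13.67 (replicates 1, 2, 4 and 7). The day 5 arrays ran from 13.66 to 14.42, with a median of 14.21, and the day 7 arrays from 11.76 to 13.64, with a median of 12.58. Every day 3 and every day 5 array thus lay above every pre-irradiation array, as did 9.11 and 5.05% of all named genes, whereas at day 7 the groups overlapped and 1 array, replicate 2, lay above. The log2 change was 1.72 (SE 0.26, adjusted p = 0.000756, 3.29-fold) at day 3 and 1.82 (SE 0.21, adjusted p = 3.43e-05, 3.53-fold) at day 5 by limma. At day 7 it was 0.35 (SE 0.26, adjusted p = 0.344). CSF3R was higher than in the same animal's own pre-irradiation array in 4 of 4 animals at day 3, 6 of 6 at day 5 and 4 of 7 at day 7.

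The day 3 call did not hold with the animal as a block (log2 change 1.86, adjusted p = 0.00526) or the slide as a block (1.28, adjusted p = 0.205, which sets 2 day 3 arrays against pre-irradiation replicate 5 on the slide they share), or without replicate 1 (1.53, adjusted p = 0.00657) or replicate 4 (1.64, adjusted p = 0.00816). With a normexp background correction neither call of CSF3R held (1.66, adjusted p = 0.0674 at day 3, and 1.27, adjusted p = 0.137 at day 5). Within scan session 2, which rests on 1 pre-irradiation array at 12.69, the CSF3R change was 1.34 at day 3 and 1.44 at day 5 (adjusted p = 0.228 and 0.0761), with every day 3 and day 5 array above that array, and the day 7 array of that session read 12.58.

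The chemokine receptors CXCR1 and CXCR2 bind CXCL8 and related chemokines and guide neutrophils toward sites of injury. CXCR1 read 12.53 to 14.06 on the unirradiated arrays, against 13.13 to 14.73 (day 3), 13.32 to 14.96 (day 5) and 12.16 to 14.48 (day 7). Its groups overlapped on all days, with replicates 5 and 6 standing above the other 5 pre-irradiation arrays. The log2 change was 1.04 (SE 0.38, adjusted p = 0.0515), 1.06 (SE 0.32, adjusted p = 0.0185) and 0.43 (SE 0.38, adjusted p = 0.437) at days 3, 5 and 7, none of which passed. CXCR1 was above the animal's own pre-irradiation level in 4 of 4, 6 of 6 and 4 of 7 animals. Its second probe, in another position of the transcript, gave 1.12, 1.09 and 0.49.

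CXCR2 showed smaller values: 0.42 (SE 0.46), 0.35 (SE 0.40) and -0.05 (SE 0.36), with adjusted p of 0.495, 0.532 and 0.933 by limma. Its pre-irradiation arrays spread from 12.67 to 14.55, a range that held all but 1 of the arrays of each of days 3 and 5 and all but 1 at day 7, where replicate 3 was lower. One day 5 array, replicate 2, had a flagged spot and gave no value, so the day 5 mean rests on 5 arrays. The other probes of CXCR2 gave 0.45, 0.43 and -0.10 (one) and 0.84, 0.90 and 0.08 (the other).

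The formyl peptide receptors sense peptides that start with formyl-methionine, as bacterial and mitochondrial proteins do. FPR1 read 11.61 to 13.53 on the unirradiated arrays, against 12.99 to 14.40 (day 3), 12.86 to 14.56 (day 5) and 12.36 to 14.43 (day 7). The groups overlapped, and replicate 1 was the lowest pre-irradiation array. The FPR1 change was 0.71 (SE 0.38), 0.72 (SE 0.34) and 0.57 (SE 0.36), with adjusted p of 0.156, 0.113 and 0.25. FPR2 had its largest value at day 7: 0.32 (SE 0.44), 0.63 (SE 0.25) and 1.24 (SE 0.35), with adjusted p of 0.59, 0.0691 and 0.0173. At day 7 it was above its own pre-irradiation level in 7 of 7 animals, by 0.78 in the median animal, and 5 of its 7 levels exceeded the highest level before irradiation. Replicate 1 was the highest at day 3, at 12.23 against 9.68 to 10.66 on the other 3 arrays of that day. The second FPR2 probe, well above background on 4 of the 7 pre-irradiation arrays, gave 1.01, 1.51 and 1.60 (adjusted p = 0.138, 0.00526 and 0.0149).

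ALPL, the tissue-nonspecific alkaline phosphatase that coats the neutrophil surface, was at the edge of detection. Its probe was well above background on 0 of the 7 pre-irradiation arrays and on 1 of 4, 1 of 6 and 4 of 7 arrays of days 3, 5 and 7. The 7 pre-irradiation arrays ran from 3.47 to 3.97, levels that are only bounds. The day 3 arrays read 5.87, 3.04, 3.25 and 2.53 (replicates 1, 2, 4 and 7), the day 5 arrays had a lowest, median and highest level of 2.52, 3.55 and 6.13, and the day 7 arrays of 3.10, 5.98 and 7.23. Replicate 1 was the array well above background at both day 3 and day 5, and replicates 1, 5, 6 and 7 were those at day 7. Against the lowest signal that counts as well above background, the day 7 mean was at least 1.23-fold higher, while the measured means were 5.59 and 3.62 (log2 change 1.97, SE 0.48, adjusted p = 0.0075, not called). The probe met the requirement of 4 arrays well above background through its day 7 arrays, so its day 7 difference is partly set by that requirement. No fold is given for days 3 and 5, where both groups lay under that signal on average.

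S100A8 and S100A9 form calprotectin, the most abundant protein complex of the neutrophil cytosol, and S100A12 is a related calcium-binding protein that signals to other cells. In the files' mapping their probes lie side by side on chromosome 1, with 12056 bases between the nearest probes of S100A12 and S100A9 and 15264 between those of S100A12 and S100A8. S100A12 had the largest change of the set. Its pre-irradiation arrays had a lowest, median and highest level of 6.89, 7.54 and 8.52. The 4 day 3 arrays read 10.72, 8.30, 9.66 and 7.94 (replicates 1, 2, 4 and 7). The day 5 arrays had levels of 8.33, 9.02 and 10.47 and the day 7 arrays of 9.19, 9.97 and 12.43 in the same order. Every day 7 array lay above every pre-irradiation array, as did 2.07% of all named genes, while 2 of 4 day 3 arrays and 4 of 6 day 5 arrays did.

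The log2 change of S100A12 was 1.50 (SE 0.50, adjusted p = 0.0358) at day 3, 1.54 (SE 0.37, adjusted p = 0.00531) at day 5 and 2.65 (SE 0.45, adjusted p = 0.000598, 6.27-fold) at day 7 by limma. It passed at day 7 only. The day 5 value missed the threshold narrowly and passed without replicate 4 (1.86, adjusted p = 0.00282), and the second probe passed there (1.77, SE 0.38, adjusted p = 0.0027) and at day 7 (2.75, SE 0.46, adjusted p = 0.000573). Over the alternatives the day 5 value of the brightest probe ran from 0.89 to 1.86. S100A12 was above the animal's own pre-irradiation level in 3 of 4, 5 of 6 and 7 of 7 animals, and the median animal rose by 2.63 at day 7. The day 7 call was lost with a normexp background correction (2.08, adjusted p = 0.0145).

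S100A8 had a lowest, median and highest level of 14.70, 15.20 and 16.07 before irradiation. The 4 day 3 arrays read 17.71, 15.87, 16.22 and 15.48 (replicates 1, 2, 4 and 7). The day 5 arrays had levels of 15.55, 16.73 and 17.59 and the day 7 arrays of 15.90, 16.70 and 17.46. Of the 7 day 7 levels, 6 exceeded the highest level before irradiation, and that of replicate 4 did not. The log2 change was 0.93 (SE 0.39, adjusted p = 0.082), 1.17 (SE 0.32, adjusted p = 0.012) and 1.35 (SE 0.26, adjusted p = 0.00157, 2.55-fold) at days 3, 5 and 7. The day 7 call was lost with the animal as a block (1.35, adjusted p = 0.0054), with a normexp background (1.50, adjusted p = 0.0806) and without replicate 1 (1.21, adjusted p = 0.00988), replicate 2 (1.33, adjusted p = 0.00763), replicate 3 (1.24, adjusted p = 0.00669) or replicate 5 (1.34, adjusted p = 0.00653), the last being the comparison within scan session 1.

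S100A9 had values of 0.93 (SE 0.30), 0.73 (SE 0.25) and 0.75 (SE 0.26), with adjusted p of 0.0301, 0.0351 and 0.045, none past the threshold. With quantile normalization it passed at day 5 (1.08, adjusted p = 0.00336) and at day 7 (1.50, adjusted p = 0.000727). Over the alternatives other than leaving out animals or arrays, its change ran from 0.34 to 1.09 at day 3. In the same alternatives it ran from 0.20 to 1.08 at day 5 and from 0.75 to 1.50 at day 7. Its unirradiated levels ran from 16.77 to 17.94, against 17.73 to 19.04 (day 3), 17.73 to 18.79 (day 5) and 17.48 to 19.10 (day 7). The groups overlapped on each day, with 3 of 4, 3 of 6 and 5 of 7 levels over the highest one before irradiation. Its second probe, with a value on 3 of the 4 day 3 arrays, gave 0.99, 0.73 and 0.78. No probe of the set was saturated on any array.

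PADI4 turns arginine into citrulline in proteins and in histones, a step in the release of neutrophil extracellular traps. Its unirradiated levels ran from 13.56 to 15.55, against 14.93 to 15.74 (day 3), 14.25 to 15.80 (day 5) and 14.48 to 16.79 (day 7). The groups overlapped on all days. The log2 change was 0.75 (SE 0.35), 0.49 (SE 0.36) and 0.84 (SE 0.38), with adjusted p of 0.116, 0.314 and 0.113, and its second, dimmer probe gave 1.17, 0.76 and 0.79.

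**Figure D2:**
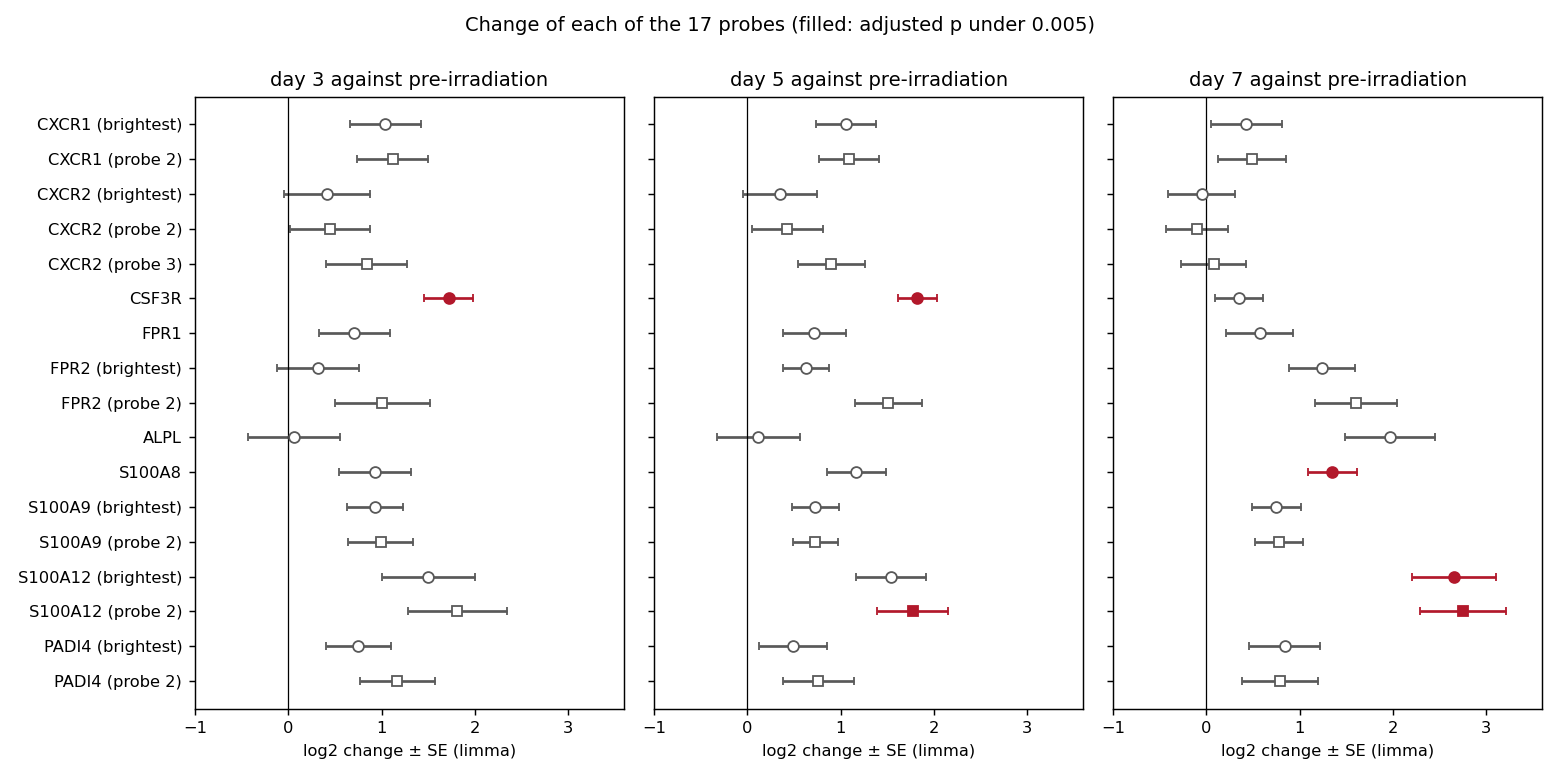
Log2 change of each of the 17 probes against pre-irradiation (x axis, points with ± SE from limma) at day 3, day 5 and day 7 (panels), with 1 row per probe. Circles are the brightest probe of a gene, squares its other probes, and filled symbols passed an adjusted p under 0.005, which CSF3R did at days 3 and 5, S100A8 at day 7 and S100A12 at day 7 with both probes and at day 5 with the second probe.

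The animals differed from each other. ALPL is left out of these counts, since no animal had it well above background before irradiation. Replicate 1 was higher than its own pre-irradiation array in 9 of 9 members on all 3 days, with a median log2 change of 2.38, 2.15 and 2.01. Replicate 2 was higher in 9 of 9 members at day 3, 8 of the 8 measured at day 5 and 9 of 9 at day 7, with medians of 1.22, 1.67 and 1.74. Replicate 7 was higher in 3 of 9 members at day 3 and in 8 at both later days, with medians of -0.30, 1.07 and 1.29. Replicate 4 was higher in 9, 3 and 2 members, with medians of 0.69, -0.07 and -0.34. Replicate 3 was higher in 9 of 9 members at day 5 and 7 at day 7, replicate 6 in 4 and 3, and replicate 5, which has no day 3 or day 5 array, in 6 at day 7. CSF3R was the highest member in 3 of 4 animals at day 3 and 4 of 6 at day 5. S100A12 was the highest in 7 of 7 animals at day 7, by 0.68 in replicate 4 and 4.19 in replicate 7.

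**Figure D3:**
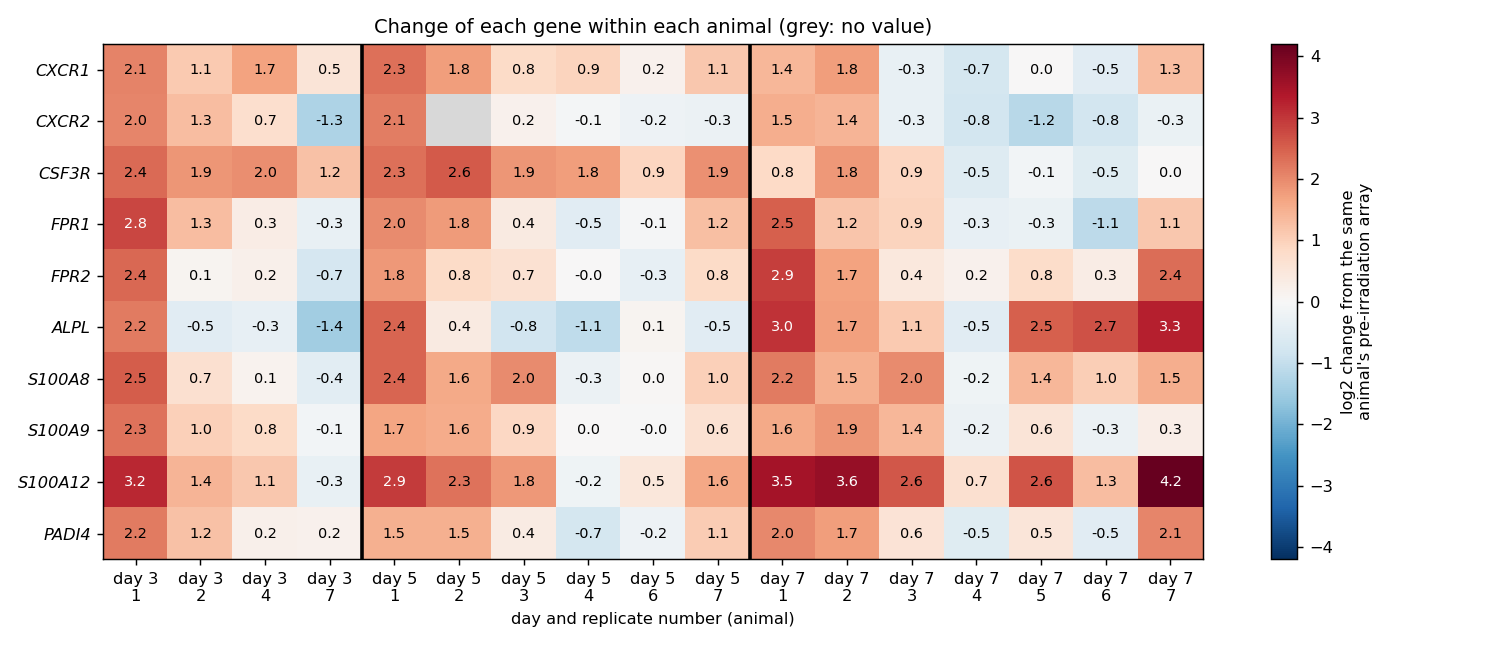
Log2 change of each gene (rows) from the same animal's pre-irradiation array, for each day and replicate number (columns), with red for higher, blue for lower and grey for no value. ALPL is set against pre-irradiation levels that were not well above background. Replicate 1 is red throughout, CSF3R is red in every animal at days 3 and 5, and S100A12 is red in every animal at day 7.

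By limma, 0 members were called between the days. Of the 9 members other than ALPL, 0, 1 and 2 had an unadjusted p under 0.05 for day 5 against day 3, day 7 against day 3 and day 7 against day 5, as did 11.1, 34.3 and 21.1% of all named genes. In the same fits 0.0368, 1.63 and 0.00919% of all named genes were called in either direction. The log2 differences of these 9 ran from -0.27 to 0.30, from -1.37 to 1.15 and from -1.47 to 1.11. CSF3R was lower at day 7 than at day 3 by a log2 difference of -1.37 (SE 0.32, adjusted p = 0.0156) and than at day 5 by -1.47 (SE 0.26, adjusted p = 0.0236), and every day 7 array lay below every array of day 3 and of day 5, as did 7.34 and 1.48% of all named genes. It was lower in 4 of 4 and 6 of 6 animals. Over the alternatives, leaving out animals or arrays included, the CSF3R differences ran from -1.66 to -1.14 and from -1.64 to -0.78. The first passed only with all 24 arrays in 1 limma fit (adjusted p = 0.00159), and the second passed in no alternative. All day 3 and day 5 arrays but 1 of 7 day 7 arrays were scanned in session 2. Within that session the CSF3R differences, which rest on that 1 day 7 array, were -1.44 and -1.54 and did not pass. S100A12 had differences of 1.15 (SE 0.66, adjusted p = 0.243) and 1.11 (SE 0.51, adjusted p = 0.234) in the same comparisons, and it was higher in 3 of 4 and 6 of 6 animals. Between days 5 and 3 the differences were 0.10 (SE 0.24) for CSF3R and 0.05 (SE 0.58) for S100A12.

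Of 11 listed chemoattractants and growth factors of neutrophils, 9 were tested. PPBP and CXCL3, chemokines that bind CXCR2, rose at day 3 by a log2 change of 3.06 (adjusted p = 0.000205) and 2.19 (adjusted p = 0.000801), and none was called at day 5. At day 3 the platelet markers, which include PPBP, were called higher in 9 of 9 genes, with a summed signal of 370000 to 625000 against 43400 to 121000 before irradiation. Their part in the change of the chemokines was not tested. CSF2, a growth factor of granulocytes and macrophages whose receptor is not in the set, passed as lower at day 7 (adjusted p = 0.00275), but it was well above background on 1 of 7 day 7 and 3 of 7 pre-irradiation arrays, so no size is given.

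Of 17 tested genes for other receptors of mature neutrophils, 3, 5 and 2 were called higher on days 3, 5 and 7 and 0, 1 and 1 lower. The median change was 0.81, 0.95 and 0.25. Among all named genes 5.97, 6.24 and 2.67% were called higher and 7.59, 9.13 and 7.2% lower on these days. ITGAM and ITGB2 encode the chains of the integrin CD11b/CD18, and ITGAM was called on all 3 days at 1.73, 1.50 and 1.69. The receptor for platelet-activating factor, PTAFR, rose by 1.81 at day 3 (adjusted p = 0.00146), and of its other 2 probes one passed (1.37, adjusted p = 0.00496) and one did not (1.34, adjusted p = 0.00634). TREM1 and TLR2, which amplify and start inflammatory responses, rose by 1.73 and 1.37 at day 5, where a second TREM1 probe gave 1.02 and did not pass (adjusted p = 0.0109). C5AR1, the receptor for complement C5a, went the other way, with -2.05 (SE 0.20, adjusted p = 5.64e-06) at day 5 and -1.99 (SE 0.21, adjusted p = 1.99e-05) at day 7.

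Among 22 other late neutrophil genes 2, 3 and 1 were called higher at days 3, 5 and 7 and 0, 0 and 1 lower, with medians of 0.89, 0.79 and 0.44. Of all named genes 5.97, 6.24 and 2.67% were called higher and 7.59, 9.13 and 7.2% lower. The counts are no result about this list. ALOX5, the first enzyme of leukotriene synthesis, rose by 2.10 and 1.63 at days 3 and 5. The potassium channel gene KCNJ15 rose by 2.14 and 1.85 at days 5 and 7. NCF1, a cytosolic subunit of the NADPH oxidase, was lower at day 7 by -1.23 (adjusted p = 0.0011), measured by 1 probe of a gene that in human has near-identical copies. Of 10 transcription factors of the lineage, 2 were called higher at day 3 (CEBPE at 1.27 and STAT3 at 1.02), 2 at day 5 (BCL6 at 1.25 and STAT3 at 0.83) and 0 at day 7. These counts stand beside 5.97, 6.24 and 2.67% of all named genes. At day 3 the other 2 STAT3 probes gave 0.88 and 0.81 and did not pass (adjusted p = 0.0292 and 0.0636).

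Granule genes of earlier stages of maturation moved in both directions. Of 17 tested, 0, 1 and 1 were called higher and 2, 4 and 3 lower at days 3, 5 and 7. The shares of all named genes were 5.97, 6.24 and 2.67% higher and 7.59, 9.13 and 7.2% lower. Among the primary granule genes, made in promyelocytes, DEFA4 was lower at day 7 by -3.69 (adjusted p = 0.00151), where it was well above background on 5 of 7 arrays, and a second DEFA4 probe gave -2.37 (adjusted p = 0.118). CTSG and ELANE also passed as lower at day 7, but no size is given, since they were well above background on 1 of 7 arrays each, against 5 and 3 of 7 pre-irradiation arrays. Of the secondary granule genes, LCN2 was higher at day 7 by 3.05 (SE 0.54, adjusted p = 0.000813). CRISP3, another of them, passed as lower at days 3 and 5 (adjusted p = 0.000525 and 0.000321) and is given without a size, since it was well above background on 0 of 4 and 0 of 6 arrays there, against 6 of 7 before irradiation.

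Of the genes that carry the signal from CSF3R, 11 were tested and 5, 5 and 1 were called higher, with medians of 1.02, 0.83 and 0.18 at days 3, 5 and 7. Among all named genes 5.97, 6.24 and 2.67% were called higher. LYN, a Src-family kinase, rose by 1.30 at day 3 (adjusted p = 0.00261) and by 0.94 at day 5 (adjusted p = 0.00203). The kinase TYK2 rose by 1.06 and 0.85 by its brightest probe, while a second TYK2 probe gave 1.02 and -0.70 and did not pass. At day 7 JAK1 passed by its brightest probe (1.10, adjusted p = 0.00459), and its other 2 probes gave 0.52 and 0.66. These kinases act in other leukocytes too.

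Of 10 other S100 genes, 0 were called higher by limma and 1, S100A13, was lower on all days, by -2.15, -2.61 and -2.42, a share near that of all named genes called lower. Of these 10 genes, 7, 5 and 3 had an unadjusted p under 0.05 at days 3, 5 and 7, as did 47, 43.9 and 38.2% of all named genes, and their median change was 0.79, 0.15 and -0.11. PADI2 was lower by -2.09, -1.61 and -1.24 (adjusted p = 0.000235, 0.000919 and 0.00446), and it was the 1 gene called of 3 tested among the other PADI and alkaline phosphatase genes. A second PADI2 probe gave -2.89, -1.60 and -0.88, of which the day 5 and day 7 values did not pass (adjusted p = 0.00958 and 0.0861). Of 4 tested receptors and partners of the S100 proteins (TLR4, AGER, CD36 and MYD88) 0 were called by limma at days 3, 5 and 7, where 2, 3 and 1 had an unadjusted p under 0.05, and their median change was 0.90, 0.90 and 0.15.

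Markers of some other cells moved over the same days. NK cell markers were called in 0 of 9 genes at days 3, 5 and 7. T cell markers were called lower in 1, 1 and 0 of 9 genes and higher in 0. Among all named genes 5.97, 6.24 and 2.67% were called higher and 7.59, 9.13 and 7.2% lower. Of 9 monocyte markers, which share CSF3R and the S100 genes with neutrophils, 4, 4 and 1 were called higher at days 3, 5 and 7. Their summed signal ran from 41400 to 71500 on the unirradiated arrays, against 114000 to 167000 (day 3), 89900 to 135000 (day 5) and 46500 to 117000 (day 7). B cell markers were called lower in 8, 8 and 9 of 9 genes, with a summed signal of 34000 to 45100 before irradiation and 2070 to 5300 after it. Red cell markers were called lower in 7, 9 and 9 of 10 genes. Neutrophil markers outside the set were called higher in 0, 2 and 1 of 7 genes, with medians of 1.02, 1.07 and 1.18 and summed signals of 24300 to 53100 on the unirradiated arrays, against 45000 to 129000 (day 3), 45500 to 130000 (day 5) and 35300 to 161000 (day 7). Neutrophil precursor markers were called lower in 1, 3 and 3 of 8, while their summed signal had a median of 142000 before irradiation and of 227000, 212000 and 208000 at days 3, 5 and 7. The part of monocytes, B cells and red cells in the changes of the set was not tested.

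**Figure D4:**
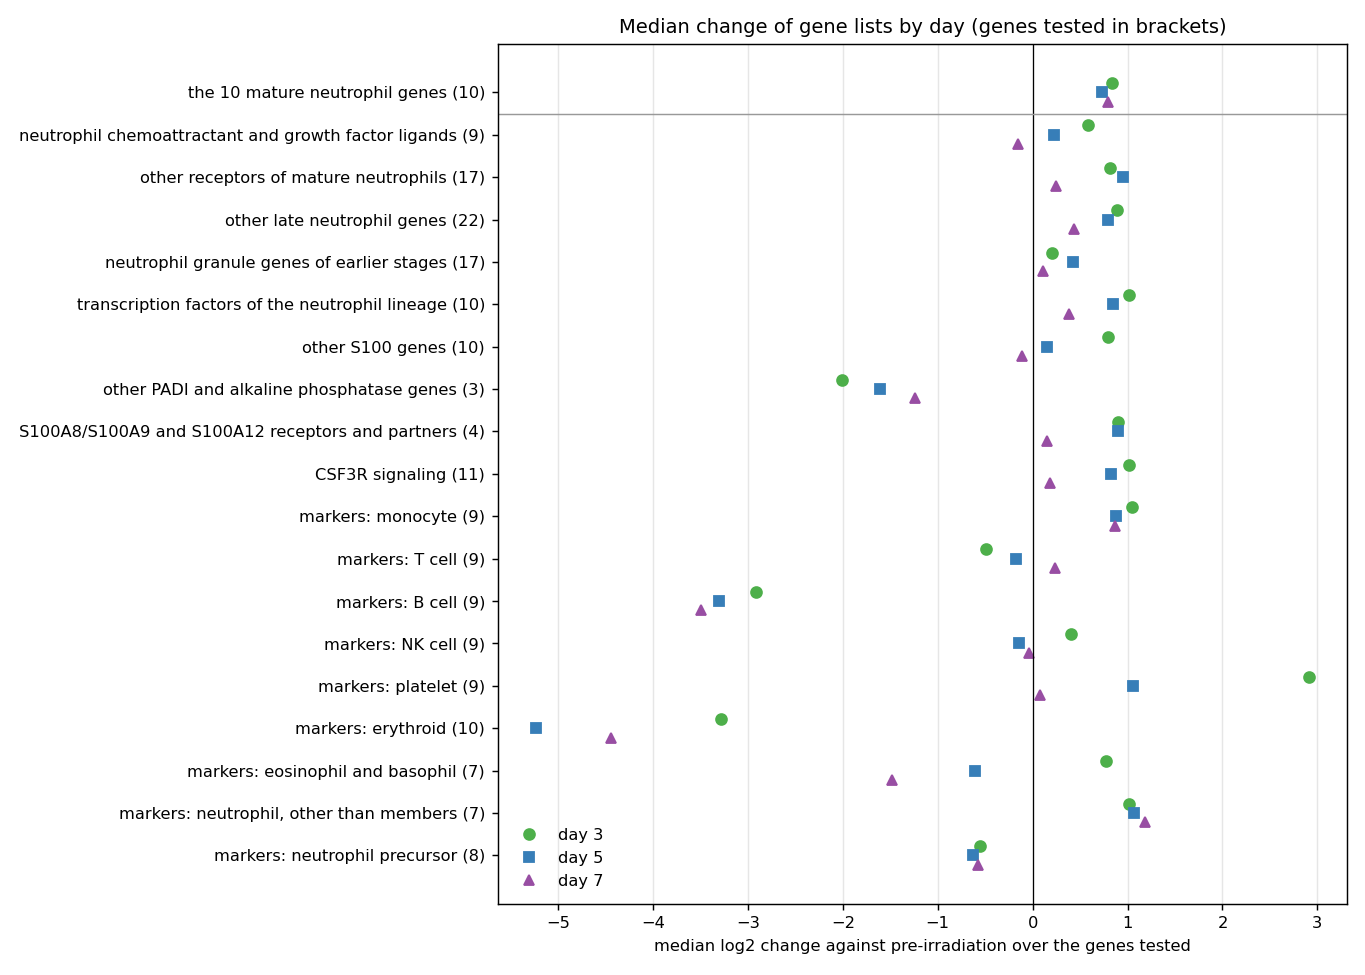
Median log2 change against pre-irradiation (x axis) of the 10 mature neutrophil genes, of related gene lists and of cell type markers (rows, genes tested in brackets) at day 3 (circles), day 5 (squares) and day 7 (triangles). The 10 genes lie at 0.84, 0.73 and 0.79, beside 1.02, 1.07 and 1.18 for other neutrophil markers, 1.05, 0.88 and 0.87 for monocyte markers and -2.92, -3.31 and -3.49 for B cell markers.

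Over the 24 arrays the members fell into patterns that resemble each other to different degrees, given here as a description across arrays that share animals, slides and normalization. S100A8 and S100A12 had the highest Pearson correlation of any pair (0.91), followed by FPR2 and S100A12 (0.88) and FPR2 and S100A8 (0.82). CXCR1 and CXCR2 correlated at 0.81 and CSF3R and FPR2 at 0.20. After the group means were taken out, CSF3R and S100A9 reached 0.87. No correlation is given for ALPL by itself, whose values mostly lay near background, but ALPL counts in the mean of the members. The named genes outside the set most like that mean were VPS37C (0.922), PYGL (0.909), CRISPLD2 (0.903), APMAP (0.902) and MKNK1 (0.896). By member, CXCR1 was most like MMP25 (0.894) and MEFV (0.873), CXCR2 like LTB4R (0.840) and ARG2 (0.836) over 23 arrays, and CSF3R like CYTH4 (0.935) and ZFP36 (0.931). FPR1 was most like CRLF3 (0.845) and ZNF467 (0.827), and FPR2 like APMAP (0.898) and S100A12 (0.880). S100A8 was most like S100A12 (0.915) and GPR84 (0.864), S100A9 like ZNF467 (0.894) and JUNB (0.880), S100A12 like LCN2 (0.920) and S100A8 (0.915), and PADI4 like SIGLEC5 (0.939) and AQP9 (0.924).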

How the data were processed

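RNA of 24 whole blood samples was measured on one-colour arrays. The deposited scanner output holds, per spot, the background-subtracted linear intensity that the authors' software calls processed signal (Feature Extraction 10.7 per the labels, 12.0.2.2 per the file headers), and the authors' deposited series matrix holds log2 values normalized to the median array, used as an alternative. The array design in the files is a rhesus one, whereas the study's methods name a human array. Here log2 intensity was taken, flagged spots were left out, spots of a probe averaged, and arrays shifted to the median array. A probe was tested if 4 or more of the 24 arrays had it well above background. Tests were made with limma 3.58.1 (R 4.3.3), each pair of groups in its own fit, at an adjusted p under 0.005. Scripts were tested on simulated data. Python 3.11.15, numpy 2.4.6, pandas 2.3.3 and matplotlib 3.10.9 were used, and statmod 1.5.0 for the random slide block. Groups and replicate numbers came from the labels.

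The scanner output gave a gene symbol for 23054 of 43603 probes, and an accession match to RefSeq gave one for 898 more. Members and gene lists were chosen with earlier results of these data known. All probes of the members are named, and from other lists at most 4 called genes per comparison, some of which are not reported here. A replicate number stands for 1 animal, as the study's sample records give it. Residuals of arrays with the same number correlated at 0.13 to 0.65 in all pairs, so the animal as a block was tried, as were other normalizations, background correction, filters, slide and session blocks, and leaving out animals.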

Additional observations from a re-analysis of the deposited data

How the results depend on the processing

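With a normexp background correction (offset 50) 0 members were called at days 3, 5 and 7, where 0.513, 0.882 and 1.17% of all probes were called. With the replicate block (animal) the counts were 0, 1 and 1, and the pairing changed no call between days. With the slide as a fixed block 0 were called at day 3, and that block could not be fitted for day 5 against pre-irradiation or day 7 against day 5. With the scan session as a block, or within session 2, 0 were called at days 3 and 5, and within session 1, 1 at day 7. Against pre-irradiation, all estimates within session 2 rest on pre-irradiation replicate 5. So do those with the slide block at day 3 and with the session block at days 3 and 5. Within session 2, day 7 against day 3 or day 5 rests on 1 day 7 array, replicate 5. At day 7, 2 members were called with the slide or the session as a block. At day 5 the count was 2 with 75th percentile scaling, with probes well above background on every array of a group, with the authors' normalized values and with the mean of a gene's probes, the second gene being S100A12, and 3 with quantile normalization and without a filter. At day 7 it was 3 with quantile normalization, the third being S100A9. With all 24 arrays in 1 fit, 1 was called for day 7 against day 3, CSF3R. Leaving out animals or arrays gave 0 to 1 at day 3 (0 without replicate 1 or 4), 1 to 2 at day 5 (2 without replicate 4) and 1 to 3 at day 7 (1 without replicate 1, 2, 3 or 5, 3 without replicate 4, the third being ALPL, whose pre-irradiation level is a bound). The cause of these shifts was not tested.

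No called member reversed. Of 826 alternative values of member changes 765 kept direction and call, 18 lost and 12 gained the call, and 31 changed sign. CXCR2 at day 3 was -0.82 with the slide block, -0.49 with the session block and -0.49 within session 2, at day 5 -0.56 with the session block and -0.56 within session 2, and at day 7 0.28 with quantile normalization, 0.10 with normexp, 0.22 without a filter and 0.14 within session 1. With the slide block at day 3, FPR1 was -0.22, FPR2 -0.04, ALPL -0.58 and PADI4 -0.04. ALPL at day 3 was -0.02 with the replicate block, and PADI4 at day 5 -0.04 with the session block and within session 2. Between days 5 and 3, CSF3R was -0.39 and S100A12 -0.08 with normexp, and S100A12 -0.33 with the slide block. Leaving out arrays gave -0.30 to 0.64 for FPR2 and -0.66 to 0.50 for ALPL at day 3, -0.02 to 0.50 for CXCR2 and -0.35 to 0.35 for ALPL at day 5, -0.32 to 0.14 for CXCR2 at day 7, and -0.07 to 0.20 for CSF3R and -0.49 to 0.39 for S100A12 between days 5 and 3. ALPL values near background have no firm sign.

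Over all alternatives, the fewest genes called was 0 for every other list at day 3 and for every list but B cell markers (2 and 7) and red cell markers (7 and 7) at days 5 and 7. Leaving aside normexp and the slide and session settings, 1 to 5 CSF3R signaling genes and 2 to 5 monocyte markers were called at day 3, and 2 to 7 and 2 to 4 at day 5. Leaving out pre-irradiation replicate 5, day 5 replicate 2 or day 7 replicate 2 was chosen after seeing the data.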

Other observations

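Of 40 sets of arrays (10 members by 4 groups) none held an array that stood apart from the rest by Dixon's critical value. The response of the sexes was compared as an interaction of sex and day at days 5 and 7. By limma, 0 probes passed an adjusted p of 0.05 on either day. Of the members, CXCR2 alone had an unadjusted p under 0.05, at day 7, where its log2 change was 1.21 larger in females (adjusted p = 0.569 by limma).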
